A study of Homo sapiens with 8 samples.

Results

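The short arm of chromosome 2 carries both partners of the EML4-ALK fusion, and the stretch that spans them was examined as the part of chromosome 2 from 28 to under 44 Mb of hg38. It holds 907 of the 126470 H3K27ac peaks in the series and 199 of the 43869 genes. Peaks were taken by their start coordinate and genes by their pairing with one of these peaks. Of the 199 genes, 73 are protein coding and 63 are long noncoding RNAs. The region was picked with the changes in these same libraries already known, so its overall changes are a description of it and support nothing further.

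H3122 is a human lung adenocarcinoma cell line that grows on signals from the EML4-ALK fusion kinase. Treatment-naive cells (H3122p, called naive here) were compared with 3 derivatives that had evolved resistance under stepwise increases of an ALK inhibitor: erCriz0 (crizotinib, 0.5 μM), erAlec0 (alectinib, 2 μM) and erLor0 (lorlatinib, 2 μM). The labels give DMSO as the vehicle for every sample. Per the paper's methods, RNA was isolated after a drug-free period of culture, meant to lessen direct effects of the inhibitors. For ChIP-seq the methods mention no such period. Each of the 4 lines is 1 culture with 1 H3K27ac ChIP-seq library and 1 RNA-seq library, so there are no replicates, no p-values are given, and all 3 comparisons share the same naive libraries. The other 4 samples of the series (erCriz1, erLor1, Lor 2w and pooled input DNA) were not analysed here.

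ALK encodes a receptor tyrosine kinase that is normally silent in adult lung, and EML4 encodes a microtubule-binding protein that is expressed in most cells. The genes lie on opposite strands, and a paracentric inversion with 1 break in each gene puts the 5′ exons of EML4 in front of the 3′ exons of ALK, which encode the kinase. In variant 1 of the fusion, the form known for H3122, EML4 exon 13 is joined to ALK exon 20. On the fused allele the junction is therefore flanked by DNA from the telomere side of ALK and by DNA from the interval side of EML4. The rest of the interval is carried between them in reversed orientation, and its ALK end becomes the neighbour of the 3′ end of EML4. Acetylation of histone H3 at lysine 27 (H3K27ac) marks active promoters and enhancers.

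Values are rlog values, a log2 scale of normalised reads on which features with few reads are drawn toward their mean over the libraries. Each change is given as resistant line minus naive. A peak or gene is said to rise or fall only at a change of at least 1 in size, which is 2-fold. An H3K27ac value counts reads over a peak from all copies of that DNA in the cells, and the number of copies was not analysed here. Likewise, in these bulk samples fewer cells of a kind and less RNA per cell cannot be told apart. Median rlog over all peaks ran from 4.02 to 4.13 in the 4 libraries, and over the 12330 genes with a mean rlog of at least 4.64 (log2 of 25 reads) from 8.18 to 8.23. Of 7 markers of lung adenocarcinoma epithelium 6 passed that minimum (all but NAPSA), against 0 of 4 leukocyte markers, 1 of 3 fibroblast markers in the table (COL1A1, 9.49 to 10.08) and 1 of 3 endothelial markers (CDH5, 4.10 to 5.78). The leukocyte gene PTPRC was listed at 0 in every library. Of the 199 genes of the region, 62 passed the minimum and 77 were listed at 0 in all 4 libraries.

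The sequences below are those of the peaks on either side of ALK intron 19 and of the peak within EML4 intron 13, the introns in which the fusion breaks, followed by the peak with the largest gain in erCriz0 and that with the largest gain in erLor0. The first 3 are shown because they lie beside or within the introns where the fusion breaks. Each is the plus strand of hg38, 5′ to 3′, and peaks over 300 bases are given by their central 300 bases. Capitals mark matches on either strand to TGANTCA (AP-1), CATTCC (TEAD) or TGTTTAC (FOX), motifs of factors that often bind enhancers in epithelial cancer cells.
Last peak before ALK intron 19, over ALK exon 24, chr2:29213927-29214140: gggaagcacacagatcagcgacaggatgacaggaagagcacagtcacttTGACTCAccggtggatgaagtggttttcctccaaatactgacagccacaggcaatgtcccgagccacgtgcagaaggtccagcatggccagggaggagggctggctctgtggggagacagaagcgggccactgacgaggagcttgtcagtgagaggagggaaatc
First peak after ALK intron 19, in ALK intron 15, chr2:29231397-29231696: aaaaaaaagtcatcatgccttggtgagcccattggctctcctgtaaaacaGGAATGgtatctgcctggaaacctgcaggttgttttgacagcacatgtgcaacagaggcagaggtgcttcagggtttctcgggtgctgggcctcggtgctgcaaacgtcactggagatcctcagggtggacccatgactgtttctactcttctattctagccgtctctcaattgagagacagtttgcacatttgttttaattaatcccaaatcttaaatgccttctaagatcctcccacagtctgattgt
Peak within EML4 intron 13, chr2:42296934-42297233: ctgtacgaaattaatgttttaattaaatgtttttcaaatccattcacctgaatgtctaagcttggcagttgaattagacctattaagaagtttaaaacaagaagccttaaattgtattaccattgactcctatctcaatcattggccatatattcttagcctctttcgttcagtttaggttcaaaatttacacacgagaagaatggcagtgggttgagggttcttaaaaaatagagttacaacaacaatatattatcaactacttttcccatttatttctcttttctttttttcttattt
Largest gain in erCriz0, upstream of PKDCC, chr2:42036042-42036341: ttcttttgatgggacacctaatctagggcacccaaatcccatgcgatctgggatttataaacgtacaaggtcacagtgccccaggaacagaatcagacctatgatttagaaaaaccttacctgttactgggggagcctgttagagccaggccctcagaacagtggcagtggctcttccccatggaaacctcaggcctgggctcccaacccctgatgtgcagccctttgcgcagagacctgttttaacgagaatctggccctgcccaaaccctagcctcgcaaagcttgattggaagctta
Largest gain in erLor0, in ALK intron 13 beside exon 14, chr2:29233716-29234015: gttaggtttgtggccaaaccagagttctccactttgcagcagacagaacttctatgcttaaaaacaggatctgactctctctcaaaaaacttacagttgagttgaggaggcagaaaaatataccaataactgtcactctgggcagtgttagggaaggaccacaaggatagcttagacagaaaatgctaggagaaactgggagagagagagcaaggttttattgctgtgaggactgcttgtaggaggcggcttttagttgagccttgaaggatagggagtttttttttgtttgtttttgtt

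The peak over ALK exon 24 held 1 AP-1 match, the peak in ALK intron 15 held 1 TEAD match, and the other 3 sequences held none of the 3 motifs. Over the central 300 bases of all peaks, 9.69% held the AP-1 motif, 15.9% the TEAD motif and 4.21% the FOX motif. In the region these shares were 11.0%, 16.1% and 4.19%. Among its 128 peaks that rose in erCriz0 the AP-1 motif was in 23 (18.0%), against 12 of 137 (8.76%) of those that rose in erAlec0 and 4 of 60 (6.67%) in erLor0. In the same order the TEAD motif was in 18.0%, 13.1% and 11.7% of these peaks. The FOX motif ran the other way, at 1.56% (2 peaks), 5.11% (7 peaks) and 8.33% (5 peaks), shares that rest on few peaks. These are counts of letters and not of bound factors.

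The question put to the region was how its acetylation and RNA differed between naive cells and each resistant line, and whether the differences were spread evenly between the fusion partners. They were not. In erCriz0 the gain lay in 2 stretches, one ending in the 3′ part of ALK and the other in the 5′ part of EML4, and the DNA between them had a median near the naive level, with gains of its own in ALK introns 3 and 4 and from 31 to 32 Mb. The gain in ALK introns 3 and 4 was present in erAlec0 too. In erAlec0 and erLor0 neither of the 2 stretches stood out. Their largest changes were at single peaks in the 5′ part of ALK and inside the interval, gene starts among them. Peaks in gene bodies also changed, inside the interval and beyond EML4. Beyond EML4 90 of 122 peaks were above naive in erLor0 and 20 rose, with a median of 0.43. Of all peaks 7.45% rose in erLor0. In erAlec0 83 of the 122 were above naive and 13 rose, with a median of 0.29, where 14.1% of all peaks rose.

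Over all 907 peaks the median change was 0.09 (erCriz0), 0.21 (erAlec0) and −0.00 (erLor0). The 9305 other peaks of chromosome 2 had medians of −0.09, −0.01 and −0.00. In erCriz0 128 peaks rose (14.1%, where 7.00% of all peaks did) and 44 fell (4.85%, background 5.94%). In erAlec0 137 rose (15.1%, background 14.1%) and 76 fell (8.38%, background 9.41%). In erLor0 60 rose (6.62%, background 7.45%) and 83 fell (9.15%, background 8.82%). Thus the share of rising peaks was above the background in erCriz0, and the other 5 shares were near it.

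The plot of changes along 2p shows where they lay. In erCriz0 the highest 1 Mb bin was 28 to 29 Mb, on the telomere side of ALK. Its 88 peaks had a median change of 1.05, 86 of them were above naive and 46 rose, and it ranked 20 of the 2347 bins of the genome with at least 10 peaks. The bin from 31 to 32 Mb came next at 0.86 (27 peaks, rank 43), then 42 to 43 Mb, which holds EML4, at 0.47 (94 peaks, rank 224), and the lowest was 30 to 31 Mb at −0.21. In erAlec0 the highest bin was 39 to 40 Mb at 0.69 (114 peaks, rank 270) and the lowest 33 to 34 Mb at −0.89 (35 peaks, rank 2280). In erLor0 the highest, which was another bin under other processing, was 43 to 44 Mb at 0.43 (89 peaks, rank 259) and the lowest again 33 to 34 Mb at −0.98 (rank 2289).

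**Figure D1:**
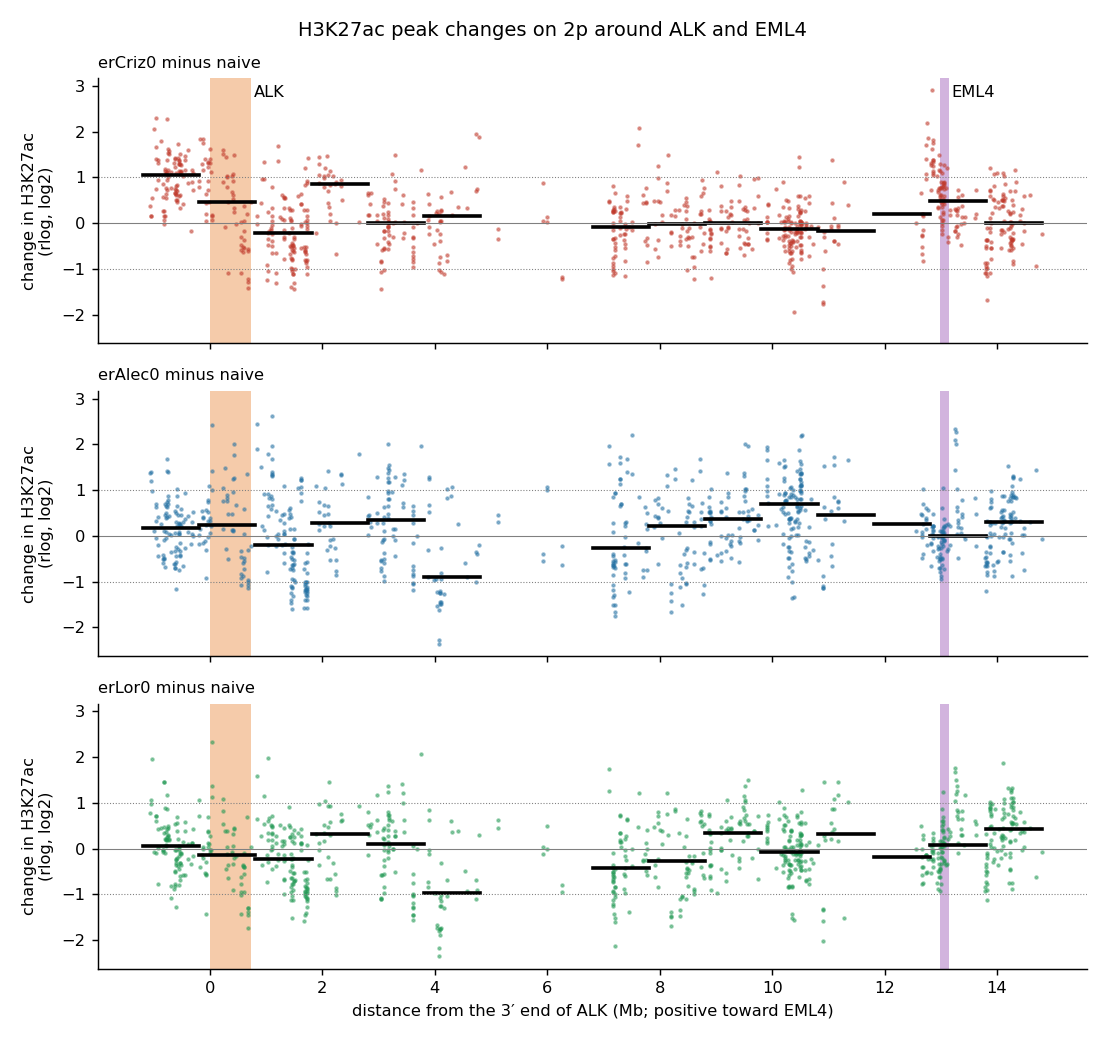
Change in H3K27ac (rlog of the resistant line minus naive, log2) of each of the 907 peaks against distance from the 3′ end of ALK in Mb, 1 panel per resistant line. Points are peaks, black bars the medians of 1 Mb bins with at least 10 peaks, shaded bands ALK and EML4, and dotted lines the limits of 1 and −1. In erCriz0 the points left of ALK and just left of EML4 sit near 1, with bin medians up to 1.05, and most of those between sit lower, apart from the bin from 31 to 32 Mb with a median of 0.86.

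The first step down at ALK fell inside the gene. The 104 peaks on its telomere side had a median change of 1.08 in erCriz0, where 102 were above naive, 55 rose and 0 fell. The 4 peaks in the 3′ part of ALK, from exon 20 to the end of the gene, changed by 1.11 to 1.61, and all 4 rose. ALK intron 19 held no peak, and the 42 peaks of the 5′ part had a median of 0.17, with 8 that rose and 5 that fell. That median joins unlike stretches. The 20 peaks in introns 3 and 4 had a median of 0.85, with 17 above naive, and held all 8 rises, and the 18 peaks in intron 1 had a median of −0.54, with 4 that fell. In erAlec0 the same segments had medians of 0.23, 0.27 and 0.13, and in erLor0 of 0.03, −0.03 and −0.27. The split within the 5′ part was not particular to erCriz0. In erAlec0 introns 3 and 4 had a median of 0.76, with 18 peaks above naive and 6 that rose, and in erLor0 −0.03. Intron 1 was low in both lines too, with medians of −0.66 (erAlec0, 4 that fell) and −0.86 (erLor0, 7 that fell).

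A pair of neighbouring peaks brackets this first step. The last before intron 19, the exon 24 peak printed above, was at 2.87 (naive), 3.98 (erCriz0), 3.09 (erAlec0) and 2.85 (erLor0), a change of 1.11 in erCriz0. The next, in intron 15, was at 3.73 (naive), 3.89 (erCriz0), 4.72 (erAlec0) and 4.85 (erLor0), a change of 0.17 in erCriz0. Both are weak peaks, so each difference rests on few reads. Among the ALK 3′ peaks erCriz0 was the highest of the 4 libraries at each, whereas at the first 3 peaks past intron 19 it was above naive by 0.08 to 0.17 and below erAlec0 and erLor0. The low values on that side rest on these 3 peaks of 1 cluster, since the next 3 peaks, in intron 4, were all above naive in erCriz0, with a median of 1.51.

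At EML4 the gain ended in the mirror-image place. The 36 peaks of the 5′ part, exons 1 to 13, had a median change of 0.58 in erCriz0, with 33 above naive, 4 that rose and 0 that fell. The peak in intron 13 was at 5.03 (naive), 6.24 (erCriz0), 4.70 (erAlec0) and 4.68 (erLor0), a change of 1.21 in erCriz0, and both other lines were below naive. Both peaks in the 3′ part of EML4 were below naive in erCriz0, with a median of −0.36, and the 122 peaks beyond the gene had a median of 0.01. The place of the step within EML4 thus rests on these 2 peaks and the 1 in intron 13. In erAlec0 and erLor0 the 5′ part had medians of −0.09 and 0.05.

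**Figure D2:**
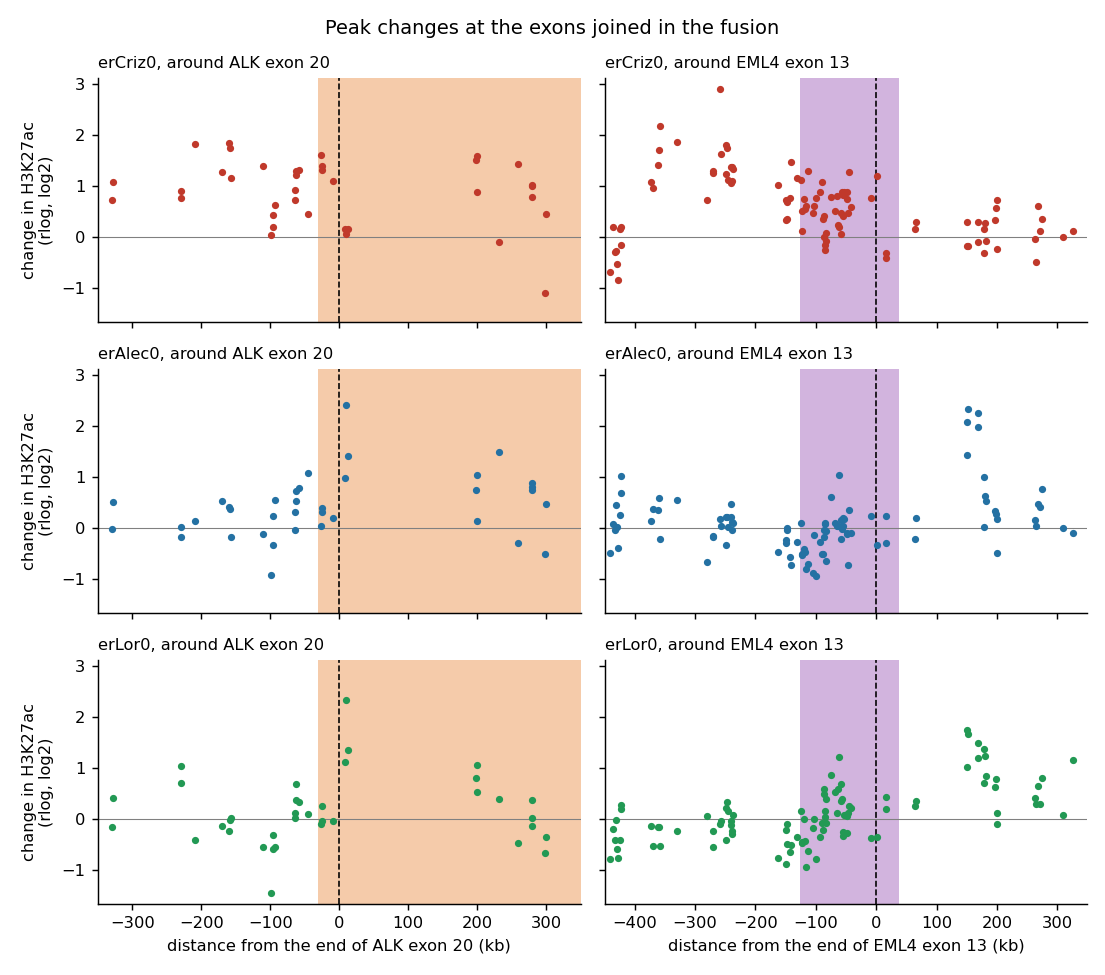
Change in H3K27ac (rlog, log2) of single peaks against distance in kb from the end of ALK exon 20 (left) and of EML4 exon 13 (right), with rows for the 3 resistant lines. Shaded bands are the genes and dashed lines the exon ends. In erCriz0 the 4 ALK peaks left of the line sit at 1.11 to 1.61 and the 3 nearest on its right at 0.08 to 0.17, with higher values again farther right, and right of EML4 exon 13 the peak at 1.21 is followed by values below 0.

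The flanking megabases are another cut of the same peaks, and had the same pattern. In erCriz0 the 1 Mb on the telomere side of ALK (100 peaks) had a median of 1.09 and the 1 Mb on its interval side (105 peaks) −0.24, a difference of 1.33. The 1 Mb on the interval side of EML4 (39 peaks) had a median of 1.06, with 33 peaks above naive and 21 that rose, and the 1 Mb beyond EML4 (80 peaks) 0.12. The 2 inner flanks thus differed by 1.30 although they belong to the same interval. The same difference between inner flanks was 0.24 in erAlec0 and 0.02 in erLor0, and that between the flanks of ALK was 0.37 and 0.23. The 1 Mb on the interval side of ALK was below naive in these lines too, with medians of −0.20 (erAlec0) and −0.23 (erLor0).

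**Figure D3:**
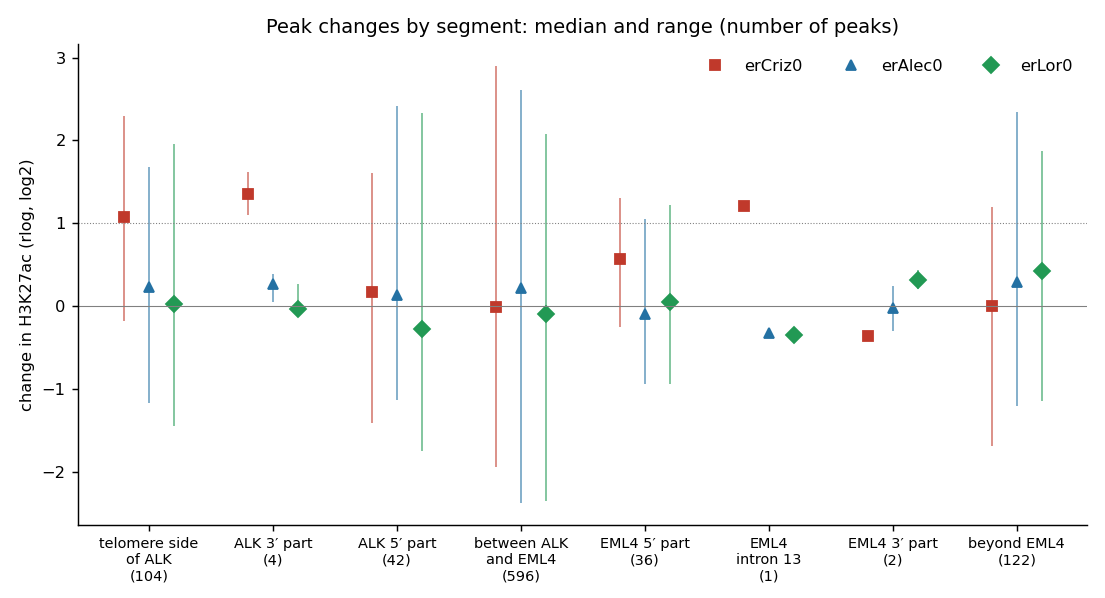
Change in H3K27ac (rlog, log2) by segment of the region for the 3 resistant lines. Symbols are medians, lines run from the lowest to the highest peak, and the number of peaks is given under each segment. The erCriz0 medians are 1.08 on the telomere side of ALK, 1.36 in its 3′ part, 0.58 in the 5′ part of EML4 and 1.21 at the single peak of EML4 intron 13, and lie between −0.36 and 0.17 in the other segments.

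The outer ends of the 2 gained stretches were set from the erCriz0 values themselves, as the point within 2 Mb outside each gene at which 2 levels gave the closest description of the peak changes. On the EML4 side the change went from −0.15 at the peak from 41873222 to 41873491 to 1.08 at the next, from 41923105 to 41923318. From 41.9 Mb to EML4 intron 13 lay 65 peaks with a median of 0.81, of which 62 were above naive and 26 rose. The 11 peaks from 41 to 41.9 Mb had a median of −0.15. On the ALK side the gain reached past the 28 Mb edge to about 27.6 Mb, where the change went from 0.15 to 1.15 between the peaks that start at 27627925 and 27652462. From the latter to ALK exon 20 lay 147 peaks with a median of 1.04, of which 145 were above naive and 75 rose. The 61 peaks from 27 Mb to the step had a median of 0.11. The 610 peaks between the stretches had a median of −0.04, and 287 were above naive. In erAlec0 the sets of 147, 65 and 610 peaks had medians of 0.21, −0.04 and 0.26, and in erLor0 of 0.04, −0.11 and −0.10.

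RNA moved with acetylation over the ALK stretch. Over the 62 genes past the minimum RNA changed by a median of 0.28 (erCriz0), 0.08 (erAlec0) and 0.05 (erLor0), where all 12330 such genes had medians of −0.02, 0.00 and −0.00. In erCriz0 13 of the 199 genes rose (6.53%, background 0.818%), in erAlec0 3 (1.51%, background 0.720%) and in erLor0 0 (background 0.321%). No gene fell in any line (background 0.481%, 0.609% and 0.219%). The 12 genes past the minimum that start between the step at 27.6 Mb and ALK exon 20 were all above naive in erCriz0, by 0.07 to 1.81 with a median of 1.12. The 43 between the stretches, ALK left out, had a median of 0.24, the 8 beyond EML4 −0.08, and the 20 from 27 Mb to the step −0.17.

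ALK (ENSG00000171094.18, chromosome 2 from 29192774 to 29921586, minus strand) had the largest RNA rise of the region. Its RNA was at 8.18 (naive), 10.65 (erCriz0), 9.58 (erAlec0) and 8.10 (erLor0), changes of 2.47, 1.40 and −0.08. The value counts reads over the whole gene, fused and unfused transcripts alike. No peak overlapped the start site of the ALK reference transcript. EML4 (ENSG00000143924.19, chromosome 2 from 42169353 to 42332548, plus strand) supplies the promoter of the fusion, and its RNA was at 12.30 (naive), 13.15 (erCriz0), 12.62 (erAlec0) and 12.36 (erLor0). Its change in erCriz0, 0.85, was just under the limit. The peak over its start rose by 1.13 in erCriz0 and changed by 0.10 and 0.17 in erAlec0 and erLor0.

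On the telomere side of ALK the genes that rose in erCriz0 follow one another along the chromosome. CLIP4, which encodes a protein with microtubule-binding domains and is the nearest neighbour of ALK on that side, was at 9.06 (naive), 10.87 (erCriz0), 9.62 (erAlec0) and 9.33 (erLor0), and rose by 1.81 in erCriz0. PPP1CB, a catalytic subunit of protein phosphatase 1, was at 11.80, 13.22, 12.12 and 11.84 in the same order and rose by 1.42. WDR43, which acts in ribosome assembly, was at 11.28, 12.57, 11.42 and 11.26 and rose by 1.29. In each of these genes erCriz0 stood more than 1 above every other library, and the other 3 libraries lay within 0.56 of each other.

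FOSL2, which encodes the AP-1 subunit FRA2, was at 10.20 (naive), 11.48 (erCriz0), 10.52 (erAlec0) and 10.36 (erLor0) and rose by 1.28 in erCriz0. TRMT61B, a mitochondrial RNA methyltransferase, rose by 1.21 and BABAM2, a subunit of BRCA1-associated complexes in DNA repair, by 1.08. The noncoding PPP1CB-DT rose by 1.01, and ENSG00000270210, a noncoding gene downstream of FOSL2 that did not pass the minimum, by 1.09. PPP1CB-DT and PPP1CB overlap at their starts on opposite strands, and the sources used here do not state whether the counting used strand, so reads of the pair may not be told apart. PLB1, a phospholipase gene, changed by 0.74. None of these genes, CLIP4, PPP1CB and WDR43 included, rose in erAlec0 or erLor0, where their changes ran from −0.21 to 0.56.

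The neighbours just outside the 28 Mb edge did likewise. MRPL33, a mitochondrial ribosomal protein, was at 9.72 (naive), 10.87 (erCriz0), 10.04 (erAlec0) and 9.58 (erLor0) and rose by 1.15 in erCriz0, and RBKS, ribokinase, changed by 0.73. Nearest to the step SLC4A1AP and SUPT7L changed by 0.21 and 0.07, and GPN1 just beyond it by 0.23.

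**Figure D4:**
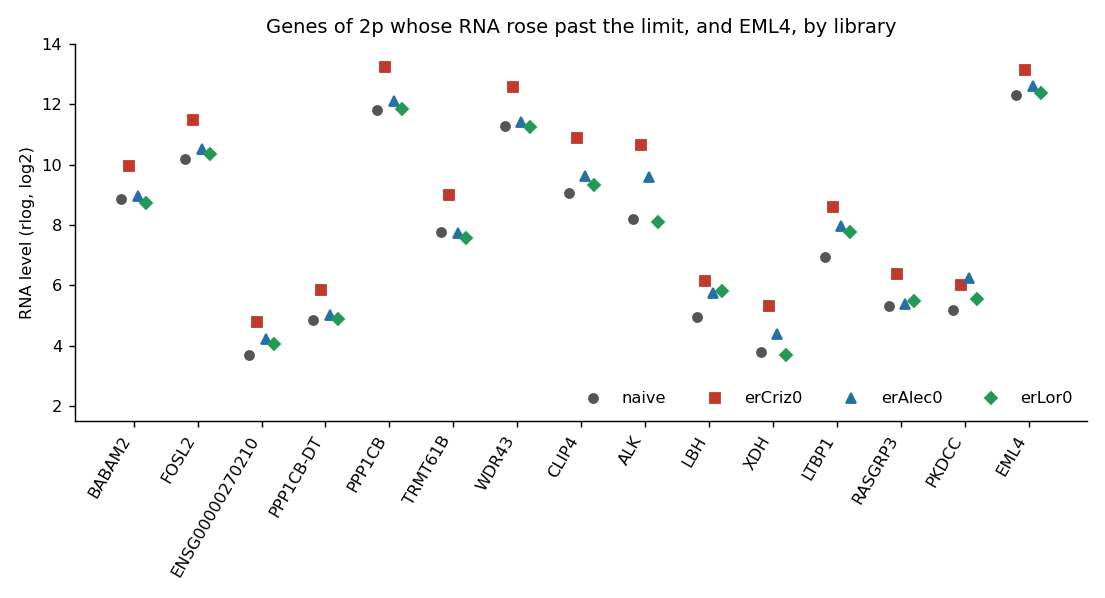
RNA level (rlog, log2) in each of the 4 libraries for the 14 genes of the region that rose in at least 1 line and for EML4, in chromosomal order from the telomere side. Symbols and colours are the libraries. From BABAM2 to CLIP4 the erCriz0 symbol stands alone above the other 3, whereas at LTBP1 and LBH all 3 resistant lines are above naive.

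Start sites were also split by the gained stretches. Since these were set from erCriz0 values, the contrast in erCriz0 follows in part from that choice. The 6 peaks over protein-coding starts in the 2 gained stretches (FOSL2, PPP1CB, TRMT61B, WDR43, CLIP4 and EML4) changed by 1.09 to 1.39 in erCriz0, and all 6 rose. The 46 start peaks elsewhere in the region had medians of 0.43 (erCriz0), 0.39 (erAlec0) and 0.52 (erLor0), with 43, 42 and 43 of them above naive. The 639 start peaks on the rest of chromosome 2 had medians of 0.29, 0.25 and 0.49, so a small gain at starts was common to the chromosome. Away from starts, the 167 peaks of the 2 stretches had a median of 0.92 in erCriz0 and the 688 other peaks of the region −0.08.

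Very broad peaks, of 10 kb or more, numbered 10 in the region. In erCriz0 3 of them rose, and all 3 lie in the gained stretches, which were set from erCriz0 values. Of all peaks of any length 7.00% rose in erCriz0. The share that rose among the 1618 such broad peaks of the series was not counted. The peak over the last exons of PLB1 was at 11.56 (naive), 12.98 (erCriz0), 11.28 (erAlec0) and 11.16 (erLor0) and rose by 1.42. That over the start of CLIP4 rose by 1.39, and the longest, 25025 bases between PKDCC and EML4, rose by 1.03. In erAlec0 and erLor0 these 3 changed by −0.75 to −0.11.

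Toward EML4 the gained stretch begins upstream of PKDCC, which encodes a secreted kinase that phosphorylates tyrosines of extracellular proteins. The peak from 42034079 to 42038304, printed above, was at 6.25 (naive), 9.15 (erCriz0), 6.43 (erAlec0) and 6.16 (erLor0) and had the largest rise of the region in erCriz0, 2.90. All 7 peaks within PKDCC rose in erCriz0, by 1.06 to 1.75, and none did in erAlec0 or erLor0. Of all peaks 7.00% rose in erCriz0. The PKDCC peaks lie in the stretch that was set from erCriz0 values, so their rise there follows in part from that choice. PKDCC RNA was at 5.19 (naive), 6.00 (erCriz0), 6.25 (erAlec0) and 5.55 (erLor0). The RNA rose in erAlec0, by 1.06, and changed by 0.81 in erCriz0, so the line with the gain in peaks was not the one with the larger gain in RNA.

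The next 2 rises by size in erCriz0 were in the ALK stretch. A peak in BABAM2 intron 7, from 28224925 to 28226463, was at 5.11 (naive), 7.41 (erCriz0), 5.44 (erAlec0) and 5.72 (erLor0) and rose by 2.29. A peak downstream of FOSL2, from 28422403 to 28425803, was at 7.08, 9.36, 8.76 and 7.95 and rose by 2.28 in erCriz0 and 1.68 in erAlec0. The 3 largest falls in erCriz0 were in the interval: near MAP4K3-DT (−1.94), upstream of SLC8A1 (−1.76) and in NLRC4 intron 8 (−1.44). All 3 were below naive in the other lines too, with changes from −2.02 to −0.70.

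In erAlec0 and erLor0 the largest gain at ALK was on the other side of the break, in the 5′ part that the fusion leaves out. The peak from 29231949 to 29235783, over exons 14 and 15, was at 6.32 (naive), 6.39 (erCriz0), 8.74 (erAlec0) and 8.65 (erLor0). The rises were 2.42 (erAlec0) and 2.33 (erLor0), and erCriz0 differed from naive by 0.08. With its 2 neighbours it forms a group of 3 whose changes ran from 0.99 to 2.42 in erAlec0 and from 1.12 to 2.33 in erLor0. ALK RNA rose in erAlec0 and was at the naive level in erLor0, so the 2 lines shared the peak and differed in the RNA.

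LBH and its surroundings gained in the same 2 lines. LBH encodes a regulator of transcription, and the peak over its start was at 7.13 (naive), 7.38 (erCriz0), 8.91 (erAlec0) and 9.10 (erLor0), rises of 1.79 and 1.98. A distal peak paired with it, from 30299770 to 30303351, was at 5.91, 5.51, 8.53 and 6.38, a rise of 2.61 in erAlec0 and the largest of that line. Another peak, from 30029344 to 30030482, rose by 2.45 in erAlec0 and 1.59 in erLor0. LBH RNA was at 4.95 (naive), 6.13 (erCriz0), 5.73 (erAlec0) and 5.81 (erLor0). It rose in erCriz0 (1.18), where the start peak changed by 0.25, and changed by 0.78 and 0.85 in the lines where the start peak rose.

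LTBP1, which tethers latent TGF-beta to the extracellular matrix, combined a gain at its start with a loss over its body. Its RNA was at 6.94 (naive), 8.61 (erCriz0), 7.98 (erAlec0) and 7.77 (erLor0), changes of 1.67, 1.04 and 0.84. The peak over its start was at 4.29, 5.45, 6.24 and 6.36, rises of 1.17, 1.96 and 2.08. Of the 24 other peaks within the gene, 13 fell in erAlec0 and 15 in erLor0, against 3 in erCriz0, and their medians were −1.21, −1.20 and 0.03 in that order. Among all peaks 9.41%, 8.82% and 5.94% fell in these lines. The peak over exons 17 and 18 was at 9.11 (naive), 9.30 (erCriz0), 6.74 (erAlec0) and 6.77 (erLor0), the largest fall of the region in the last 2 lines (−2.37 and −2.34). The bin from 33 to 34 Mb, the lowest in both lines, holds 35 peaks, and these 24 are among them.

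**Figure D5:**
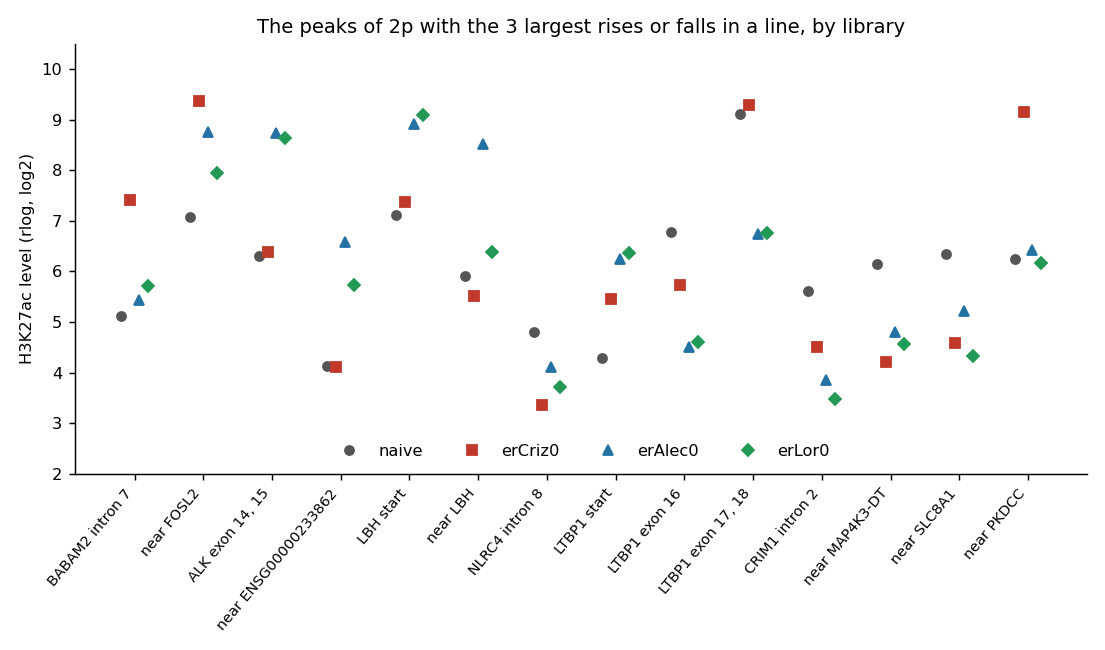
H3K27ac level (rlog, log2) in each of the 4 libraries for the 14 peaks with the 3 largest rises or falls in any line, in chromosomal order and named by the gene they lie in or near. The erCriz0 symbol is alone at the top in BABAM2 intron 7 and near PKDCC, and erAlec0 and erLor0 are together at the top over ALK exons 14 and 15 and together at the bottom over LTBP1 exons 17 and 18.

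Peaks also changed in other gene bodies, within the interval and beyond EML4. These groups of neighbouring peaks were picked after their values were seen. Of all peaks 7.00% rose in erCriz0, 14.1% in erAlec0 and 7.45% in erLor0. TMEM178A, a membrane protein gene, had 26 peaks, of which 18 rose in erAlec0 (median 1.14) and 1 in erCriz0 and 1 in erLor0. Its broad peak over exon 4 was at 10.13 (naive), 10.12 (erCriz0), 12.34 (erAlec0) and 11.41 (erLor0), while its RNA, below the minimum, changed by 0.78 in erAlec0. In intron 1 of KCNG3, a potassium channel subunit gene beyond EML4, 6 of 9 peaks rose in erAlec0 and 7 in erLor0, and the median changes were −0.06 (erCriz0), 1.45 (erAlec0) and 1.25 (erLor0). KCNG3 RNA was at 5.08 (naive), 4.55 (erCriz0), 4.62 (erAlec0) and 4.77 (erLor0), lower than naive in each line but under the limit. In CRIM1, which encodes a transmembrane binder of growth factors, a peak in intron 2 fell in all 3 lines (−1.10, −1.75 and −2.13), and the RNA changed by 0.46, 0.08 and −0.18.

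The bin from 31 to 32 Mb, second in erCriz0, lies in the interval and outside both gained stretches. Of its 27 peaks 24 were above naive and 9 rose, and none fell. XDH, xanthine dehydrogenase of purine breakdown, was at 3.78 (naive), 5.32 (erCriz0), 4.38 (erAlec0) and 3.69 (erLor0) and rose by 1.54 in erCriz0, and it did not pass the minimum. EHD3, a regulator of endocytic recycling, changed by 0.31 in erCriz0 and −0.69 in erAlec0, the lowest value among the genes past the minimum in that line.

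Grouped by function, most genes of the region stayed under the limit. Of 9 signalling genes, PPP1CB and RASGRP3 rose in erCriz0 and PKDCC in erAlec0, with medians of 0.41, 0.15 and 0.16 in erCriz0, erAlec0 and erLor0. RASGRP3, a guanine nucleotide exchange factor for RAS, was at 5.30 (naive), 6.38 (erCriz0), 5.37 (erAlec0) and 5.46 (erLor0). SOS1, another exchange factor for RAS, changed by 0.29, 0.18 and 0.22, and CDC42EP3, an effector of CDC42, by 0.69, 0.68 and 0.46. Of 12 genes of transcription and RNA, FOSL2, LBH and WDR43 rose in erCriz0 and none in the other lines, with medians of 0.07, −0.08 and −0.01. SRSF7, a splicing factor, changed by −0.15, −0.66 and −0.43 and was among the 5 lowest in each line.

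Of 4 genes of matrix and growth factor binding LTBP1 rose, in erCriz0 and erAlec0, and the medians were 0.24, 0.05 and 0.05. Of the 12 metabolism and transport genes in the region XDH rose, in erCriz0, and the medians were 0.32, 0.06 and 0.00. CYP1B1, which oxidises steroids and xenobiotics, changed by 0.71, −0.24 and 0.29, and QPCT, glutaminyl cyclase, by 0.78, 0.63 and 0.13. Of 14 genes of membrane traffic, cytoskeleton and survival BABAM2 and CLIP4 rose in erCriz0, and the medians were 0.23, 0.08 and 0.06. BIRC6, an inhibitor of apoptosis, changed by 0.24, 0.15 and 0.16. None of the members of these lists fell in any line.

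Several RNA changes lay close to the limit. In erCriz0 the genes just above it were PPP1CB-DT (1.01), BABAM2 (1.08), RASGRP3 (1.08) and ENSG00000270210 (1.09). Those just under it were EML4 (0.85) and PKDCC (0.81). In erAlec0 LTBP1 (1.04) and PKDCC (1.06) were just above, and TMEM178A and LBH, both at 0.78, just under. In erLor0 the nearest were LBH (0.85) and LTBP1 (0.84).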

How the data were processed

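H3K27ac ChIP-seq and RNA-seq of 4 H3122 lines were examined, 1 library of each kind per line. The authors deposited 1 table of peaks paired with genes at most 20 kb apart, whose values are on a log2 scale, rlog values computed from read counts with DESeq2. Reads were aligned by the authors to hg38 with BWA (ChIP) or HISAT2 (RNA), peaks were called with MACS2 and merged over 4 samples, and reads were counted with featureCounts or HTSeq-count. Versions are not given in the sources used here. The paper's methods state no subtraction of input. The r, p_value and p_adj columns hold the authors' correlations of each pair and were not used. Depth is unknown, since rlog values keep no totals. Regions far from any gene are represented only through pairs, and rlog understates changes of weak features.

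The change was the rlog of a line minus naive, with a limit of 1. Genes had to reach a mean rlog of 4.64, and peaks named for their rank 3.91 (log2 of 15 reads). Every other count used all peaks and genes. Symbols, exons and start sites came from GENCODE 44, in which 198 of the 199 gene identifiers were found. Named are ALK, EML4, genes that rose, the 5 largest RNA changes each way, list members, the 3 largest peak changes each way and the extreme bins. Peak groups by gene or intron, start peaks and stretch ends were chosen after their values were seen. The region, the lists and the members were chosen with earlier results of these data known. Alternatives were centring, quantile normalization, level filters, removal of the trend with peak level (20 bins), other limits, bins and flanks. Medians were compared within their 95% order-statistic interval over peaks or genes, which covers no error between cultures. The scripts were tested on simulated data with planted changes. The sequence of 1 peak is not reported here. Python 3.11.15, numpy 2.4.6, pandas 2.3.3 and matplotlib 3.10.9 were used.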

Additional observations from a re-analysis of the deposited data

Results flagged for a closer look

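In the region 3 peaks changed past the limit in opposite directions in different lines. They are 3 of the 529 peaks of the region past the level minimum, where 712 of 67290 peaks did so in all. The difference was not tested, since each line has 1 library. The peak over PLB1 exons 24 to 26 (28581685 to 28586598) was at 8.48 (naive), 9.57 (erCriz0), 7.31 (erAlec0) and 7.21 (erLor0), changes of 1.09, −1.17 and −1.27. It lies in the gained stretch beside ALK, where the other PLB1 peaks were above naive in erCriz0 too.

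A peak outside coding genes near GALNT14 (30887668 to 30892977) was at 7.88, 9.07, 6.87 and 7.05, a rise of 1.20 in erCriz0, a fall just past the limit in erAlec0 and a change of −0.82 in erLor0. A peak in the gene-poor part of the interval (33927384 to 33930993) was at 6.36, 8.32, 5.36 and 5.27, changes of 1.96, −1.01 and −1.09. At all 3 peaks erCriz0 was the highest library and erAlec0 and erLor0 were below naive. No gene had opposite RNA changes past the limit.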

How the results depend on the processing

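With 1 library per line no replicate could be left out, and no change has an error between cultures. No paired analysis was possible because each group has 1 sample. Depth is unknown, and weak peaks, such as most of those in the 3′ part of ALK, rest on few reads. Of 150 values recomputed under the planned settings 113 were the same as reported within their interval or within 1.5 times. All 33 values added after the data were seen, for the ALK and EML4 parts, were the same within their interval. The level minimum was not applied to the ALK 3′ part, most of whose peaks lie below it. In the ALK 5′ part the erAlec0 median was 0.53 with that minimum and 0.13 without. All 78 values of single genes under centring or quantile normalization stayed on the same side of the limit. Values near 0 could change sign, such as EML4 in erLor0 (0.0573, and −0.0024 after quantile normalization). The cause of each shift below was not tested.

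Limits of 1.5-fold and of 2 in place of 1 gave 245 and 6 (erCriz0), 273 and 12 (erAlec0) and 166 and 2 (erLor0) peaks up. Peaks down became 123 and 0, 171 and 2, and 198 and 4. Genes up became 20 and 1 (erCriz0) and 10 and 0 (erAlec0), with 2 up in erLor0 and 2 down in erAlec0 at 1.5-fold. Peaks past the level minimum numbered 80 up in erAlec0 and 14, 46 and 48 down in the 3 lines, partly since only 529 remain.

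The median over all peaks of the region in erCriz0 was 0.16 after centring and 0.26 past the level minimum. It was 0.13 in erAlec0 after quantile normalization and 0.079 in erLor0 after centring. The median RNA change without a minimum was 0.00 in erCriz0 and in erAlec0, since 77 genes are listed at 0. The highest erCriz0 bin was 0.88 after quantile normalization and 0.87 in bins of 2 Mb, from the same start, and the highest erLor0 bin 0.23 in bins of 2 Mb. In erLor0 the highest bin was 31 to 32 Mb after quantile normalization (0.44) and after removal of the trend with level (0.48), and another again in bins of 0.5 Mb (0.54).

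With flanks of 2 Mb, which reach past the gained stretches, the difference between inner flanks in erCriz0 was 0.76 and that between the flanks of ALK 0.79. With flanks of 0.5 Mb the same differences were −0.77 and −0.54 (erAlec0) and −0.48 and −0.24 (erLor0), so their small positive values at 1 Mb have no stable sign.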
